A study of Arabidopsis thaliana with 48 samples.

Results

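In wild-type Arabidopsis thaliana of the Columbia accession (Col-0), 118 genes moved in opposite directions in guard cells and leaves when abscisic acid (ABA) was given. They were taken from 13513 probe sets that the annotation ties to exactly 1 gene. Among probe sets of any annotation, 224 met the rule below. A gene was kept when the Col-0 mean with ABA minus the Col-0 mean without it was 0.8 or more in either guard cells or leaves and -0.8 or lower in the other, on the log2 scale of the arrays. Of the 118 genes, 53 were higher with ABA in guard cells and lower in leaves, and 65 were lower in guard cells and higher in leaves. The members were chosen by the responses measured on the 12 Col-0 arrays, so the Col-0 values below are a description without a test, and the tests use the responses of the mutants. With every array centred on its own median, the rule gave 31 and 78 genes, of which 30 and 54 are among these 118.

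Each of the 48 arrays measured RNA of either isolated guard cells or whole leaves. The plants were wild type, agb1 (allele agb1-2, a mutant of the beta subunit of the heterotrimeric G protein), gpa1 (allele gpa1-4, a mutant of its alpha subunit) or the agb1 gpa1 double mutant, all in the Columbia background. Samples were exposed for 3 h to 50 µM ABA or to its solvent ethanol (EtOH), which gave 16 groups of 3 arrays described as independent biological replicates. Plants were 5 weeks old and came from chambers with an 8 h day (120 µmol of photons, 20 °C) and a 16 h night (18 °C). RNA for a guard cell array was pooled from 300 leaves of 60 to 70 plants, and that for a leaf array from 10 leaves of 3 to 4 plants, so no array represents a single plant. The labels disagree on which was incubated, leaves or guard cells already isolated from them, and the source field calls the EtOH samples untreated. A leaf sample contains its own guard cells among many mesophyll, epidermal and vascular cells, and in such samples fewer cells of a type and less RNA per cell cannot be told apart.

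ABA is the hormone that plants make under water deficit. It binds receptors that inhibit protein phosphatases, which releases kinases that activate ion channels and transcription factors, and in guard cells, the paired cells that border each stomatal pore, this closes the pore. The heterotrimeric G protein is a membrane-bound switch, and its alpha and beta subunits in Arabidopsis are known for a part in guard cell responses to ABA. Genes that ABA induces in one cell type and represses in another are of interest because a whole-leaf measurement averages over them.

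The sample types were checked with markers. FMA, a transcription factor of the last step of guard cell formation, lay between 8.10 and 11.66 on the log2 scale in mutant guard cells and between 4.29 and 5.86 in mutant leaves. SWEET11, a sucrose exporter of the leaf veins, lay between 3.92 and 6.53 in mutant guard cells and between 8.78 and 11.36 in mutant leaves. The mesophyll genes were less apart. With the EtOH and ABA arrays pooled, RCA, SBPASE, LHCB4.2 and PRK each overlapped between mutant guard cells and mutant leaves. Within a treatment, RCA overlapped without and with ABA, SBPASE and PRK only with ABA, and LHCB4.2 in neither. The highest guard cell and lowest leaf values of LHCB4.2 were 11.50 and 12.56 without ABA and 10.58 and 11.48 with it. Without ABA they were 9.035 and 9.041 for SBPASE and 9.10 and 9.41 for PRK. RCA lay between 10.66 and 11.82 in guard cells and between 11.22 and 13.08 in leaves. The summed level of the 4 lay between 11.46 and 12.74 and between 12.78 and 14.40 (log2 of the sum). MUTE, which acts in young stomatal precursors, lay between 3.09 and 3.67 in all mutant samples. Of the marker lists, 3 of 10 guard cell genes, 4 of 7 mesophyll genes, 1 of 4 vascular genes and 0 of 5 epidermal genes had a probe set tied to 1 gene, and none of these 8 genes was a member. The transcripts of GPA1 and AGB1 were not analysed here, so the genotypes rest on the labels.

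In Col-0 guard cells the response of the 53 genes higher with ABA ranged from 0.81 to 3.03, with a median of 1.08, and in Col-0 leaves it ranged from -2.35 to -0.81, with a median of -1.14. For the 65 genes lower with ABA in guard cells, the guard cell response ranged from -2.5 to -0.80, with a median of -1.02, and the leaf response from 0.80 to 2.78, with a median of 1.18. Over all 22746 probe sets the median response was 0.03 in Col-0 guard cells and 0.05 in Col-0 leaves. The members nearest to the threshold from inside were AT5G35970 and RAD4, at 0.81 in guard cells, AT1G60160, at 0.80 in leaves, and AT1G78895, at -0.80 in guard cells. Just outside lay AT4G01280 and AT2G44060, at -0.79 and -0.80 in leaves, and AT5G44730 and AT3G03980, both at -0.79 in guard cells. The threshold therefore cuts through a continuous cloud of genes rather than separating a group of its own.

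**Figure D1:**
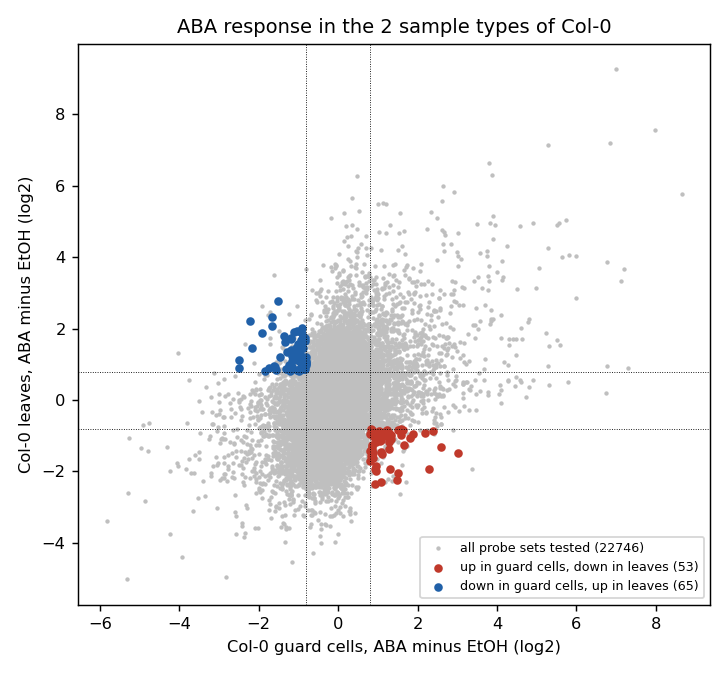
Response to ABA (mean with ABA minus mean with EtOH, log2) in Col-0 guard cells on the horizontal axis and Col-0 leaves on the vertical axis, 1 point per probe set, with dotted lines at -0.8 and 0.8. The 53 red and 65 blue members lie in the 2 outer corners in which the signs oppose, at the edge of a cloud of 22746 grey points. With probe sets of any annotation, 113 and 111 meet the rule, so grey points lie in these corners too.

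The guard cell side of the pattern was repeated in the mutants almost in full. A response was called when its limma p-value, adjusted over all 22746 probe sets with the Benjamini-Hochberg method, was under 0.05. In the mean of the 3 mutants, 52 of the 53 genes rose with ABA in guard cells, where 14.6% of all probe sets rose. Likewise 64 of the 65 genes fell, where 21% of all probe sets fell. The exceptions were MCCA, at 0.74 ± 0.30 (SE; limma adjusted p = 0.0624), and SWEET1, at -0.27 ± 0.17 (SE; limma adjusted p = 0.259). The median response in mutant guard cells was 1.12 for the first group and -0.94 for the second, beside a median of 0.01 over all probe sets. As a share of each gene's Col-0 value, the mutant mean had a median of 100.2% in the first group and 91.8% in the second. All 118 genes had the Col-0 sign in guard cells of agb1, of gpa1 and of agb1 gpa1, whereas 31.4% of all probe sets were positive and 34.5% were negative in all 3.

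Taken mutant by mutant, with 3 arrays per group, fewer guard cell responses passed the test. In the group that was higher with ABA, 43 of 53 genes rose in agb1, 46 in gpa1 and 43 in agb1 gpa1, beside 7.26%, 8.67% and 7.26% of all probe sets. In the other group, 43 of 65 genes fell in agb1, 48 in gpa1 and 47 in agb1 gpa1, beside 8.44%, 11.4% and 8.99% of all probe sets. Without the third ABA array of agb1 guard cells, the count of 43 genes that fell in agb1 became 28. The medians of the 3 mutants lay between 1.02 and 1.20 in the first group and between -1.02 and -0.93 in the second.

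The leaf side was repeated much less. In the mean of the 3 mutants, 8 of the 53 genes that were lower with ABA in Col-0 leaves fell, while 18% of all probe sets fell. Of the 65 genes that were higher in Col-0 leaves, 31 rose, while 13% of all probe sets rose. The first share is thus close to the background and the second is above it. The median leaf response was -0.20 in the first group, against -1.14 in Col-0, and 0.47 in the second, against 1.18 in Col-0. The first became -0.10 without the first ABA array of Col-0 leaves, which changes the members, and -0.11 without the third ABA array of agb1 leaves. The second became 0.29 without the same Col-0 leaf array and 0.31 without the first EtOH array of Col-0 guard cells. As a share of each gene's Col-0 value, the mutant mean had a median of 16.4% and 31.3%, and it was under 50% of the Col-0 value in 48 of 53 and 42 of 65 genes. The sign of Col-0 leaves was kept in all 3 mutants by 30 of 53 and by 50 of 65 genes, beside 35.2% and 30.5% of all probe sets. Because the Col-0 arrays chose these genes by their size, the difference between mutants and Col-0 was not tested.

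Genes outside the 118 that passed 0.8 in Col-0 guard cells or in Col-0 leaves, whatever they did in the other, also kept more of their response in guard cells. Among such probe sets of 1 gene, the mutant mean had a median of 93.6% of the Col-0 value for 704 genes at or above 0.8 in Col-0 guard cells and 85.1% for 766 genes at or below -0.8 there. In leaves the corresponding medians were 45.5% for 1536 genes at or above 0.8 and 41.1% for 1924 genes at or below -0.8. These genes were called in the Col-0 direction in 96% and 97% of cases in guard cells and in 62.2% and 59.3% in leaves. In members the leaf counts, 31 of 65 and 8 of 53, amount to smaller shares than these. No test of that difference was made.

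**Figure D2:**
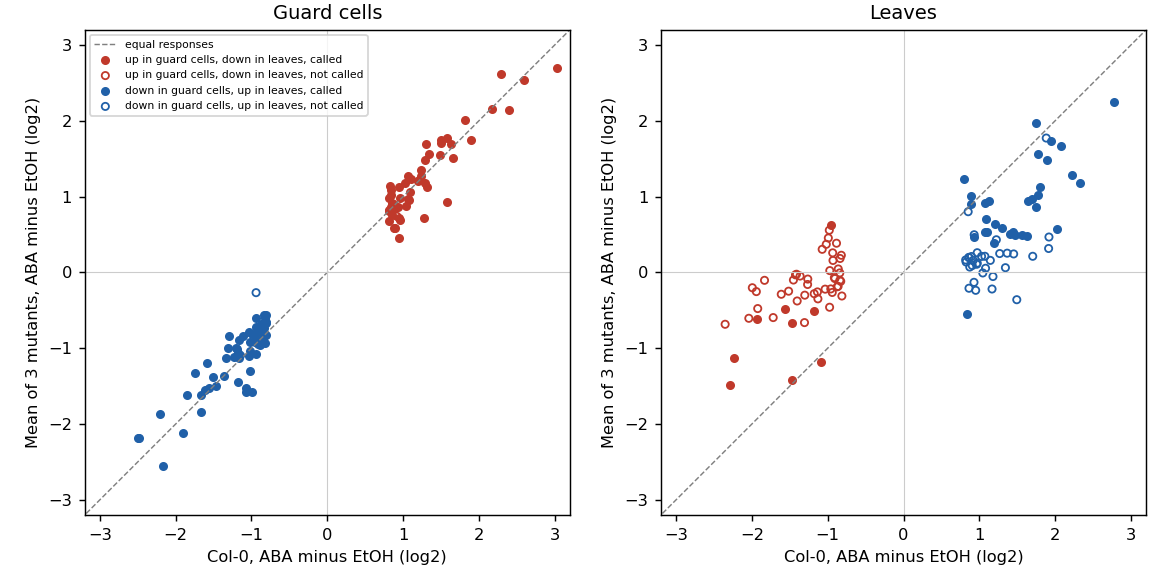
Mean response of the 3 mutants to ABA (vertical axis, log2) against the Col-0 response (horizontal axis, log2), 1 point per member, in guard cells (left) and leaves (right). Filled points were called in the mutant mean and open points were not, and the dashed line marks equal responses. In guard cells the points follow the line, with medians of 1.12 and -0.94 in the mutants, and in leaves they lie nearer to 0, with medians of -0.20 and 0.47.

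In single mutants the leaf counts were small and rested on few arrays. In the first group 6, 3 and 3 of 53 genes fell in agb1, gpa1 and agb1 gpa1, and in the second 13, 10 and 10 of 65 rose. Of all probe sets, 7.59%, 4.95% and 5.07% were called lower and 6.93%, 5.37% and 5.09% higher in these mutants, so the counts of the first group lie near the background. Over both groups 19, 13 and 13 of 118 genes were called. In agb1 the count became 10 without the first or without the second EtOH array and 8 without the third ABA array. In gpa1 it became 8 without the third EtOH array, and when the third ABA array of Col-0 guard cells was left out, which makes 138 genes members, it became 10. In agb1 gpa1 it became 6, 7 and 5 without the second EtOH, the second ABA and the third ABA array. The direction of these genes in leaves of a single mutant is thus measured with less certainty than in the mean of the 3.

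**Figure D3:**
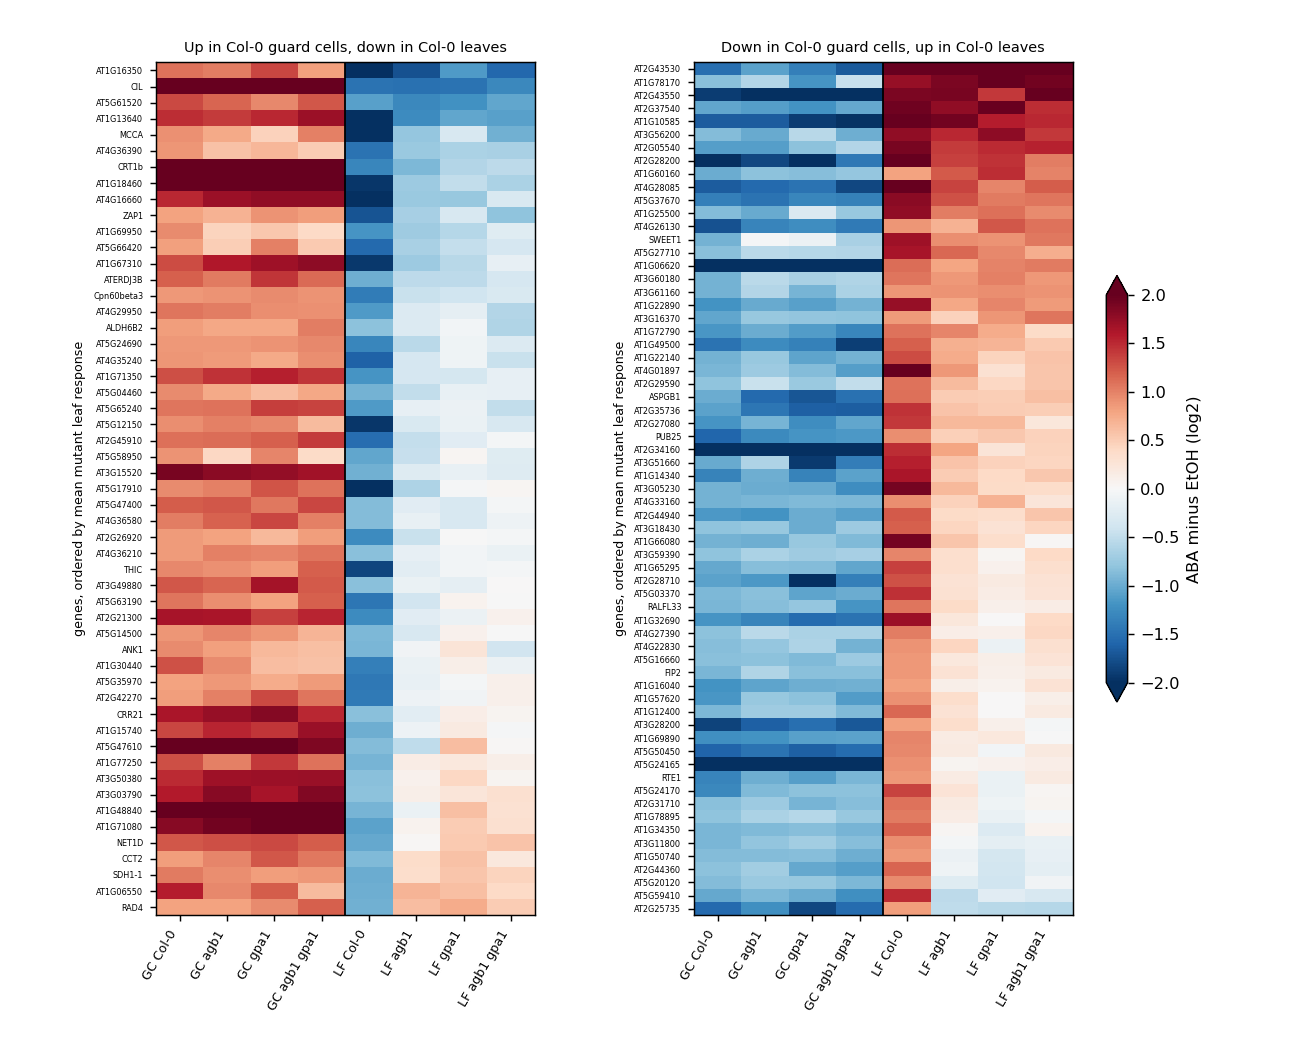
Response to ABA (mean with ABA minus mean with EtOH, log2, colours saturating at -2 and 2) of the 53 members of the first group (left) and the 65 of the second (right). Columns are guard cells (GC) and leaves (LF) of the 4 genotypes, and rows are ordered by the mean leaf response of the mutants. Guard cell columns keep 1 colour throughout, while the colour of the mutant leaf columns fades down each panel and turns in the last rows, where RAD4 and AT2G25735 stand.

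The response in guard cells minus that in leaves was called in the Col-0 direction in most members in the mutants. In the mutant mean it was called in the Col-0 direction in 47 of the 53 genes of the first group, where 11.8% of all probe sets were called higher, and in 63 of the 65 genes of the second, where 11.7% were called lower. None of the 118 was called in the other direction. The 8 genes that were not called were CCT2, SDH1-1, RAD4, ANK1, AT1G06550, MCCA, AT5G20120 and AT1G78895, named here for that reason after their values were seen. The median difference was 1.32 in the first group and -1.52 in the second, and over all probe sets it was 0.02. A call of this difference does not need a response in leaves. In the first group the median mutant response was 1.12 in guard cells and -0.20 in leaves, beside 1.08 and -1.14 in Col-0. For the second group these medians were -0.94 and 0.47, beside -1.02 and 1.18 in Col-0. In single mutants, 26, 24 and 24 of 53 genes and 35, 36 and 35 of 65 genes were called in agb1, gpa1 and agb1 gpa1. The background was 3.2%, 3.84% and 2.69% called higher, and 3.1%, 3.93% and 2.84% called lower. Without the third EtOH array of gpa1 leaves, the count of 24 in gpa1 became 15. In the mutant mean, the call of AT1G30440 was lost when any of 29 arrays was left out. That of AT5G59410 was lost when any of 30 was, and both genes are named for that reason.

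A stricter reading asks for a called response in both sample types at once. In the mutant mean, 8 of the 53 genes rose in guard cells and fell in leaves, a pattern that 0.901% of all probe sets showed. They are the same 8 genes that fell in leaves, a share close to the 18% of all probe sets that fell there. In guard cells 52 of the 53 rose. Of the 65 genes, 30 fell in guard cells and rose in leaves, which 1.07% of all probe sets did. In agb1, gpa1 and agb1 gpa1 taken alone, 5, 3 and 3 of the 53 genes did so, beside 0.0835%, 0.0659% and 0.0703% of all probe sets, and 8, 6 and 5 of the 65, beside 0.18%, 0.154% and 0.141%. Opposite calls were uncommon in general. Of the 3331 probe sets that rose in mutant guard cells, 6.15% fell in leaves and 41.6% rose there too, and of the 4780 that fell, 5.08% rose in leaves and 43.7% fell.

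The rule itself was met by fewer genes in each mutant than in Col-0. In agb1, 6 genes met it upward in guard cells, of which 5 were members (83.3% of that list and 9.43% of the Col-0 list), and 19 downward, of which 12 were members (63.2% and 18.5%). In gpa1, 12 genes met it upward, 4 of them members (33.3% and 7.55%), and 24 downward, 14 of them members (58.3% and 21.5%). In agb1 gpa1, 7 met it upward, 5 of them members (71.4% and 9.43%), and 18 downward, 12 of them members (66.7% and 18.5%). In all 4 genotypes it was met upward by 4 genes, CIL, AT1G13640, AT1G16350 and AT5G61520. Downward it was met in all 4 by 7 genes, AT1G10585, AT2G28200, AT2G37540, AT2G43530, AT2G43550, AT4G28085 and AT5G37670.

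Roles given below for genes known only by their locus number are general background on the gene family and do not come from the annotation table. Among the genes that were higher with ABA in guard cells, the widest difference belonged to CIL, which encodes a CCT-motif protein related to a regulator of chloroplast protein import genes. In Col-0 guard cells CIL was at 3.51, 3.33 and 3.56 without ABA and at 5.24, 7.69 and 6.57 with it, and in Col-0 leaves it was at 4.59, 4.89 and 5.56 without and 3.65, 3.44 and 3.52 with it. The 9 mutant guard cell arrays had a lowest, median and highest value of 3.37, 3.46 and 3.69 without ABA and 5.12, 6.09 and 7.28 with it, and the 9 mutant leaf arrays 4.59, 4.98 and 5.33 without and 3.41, 3.60 and 3.66 with it. The arrays with and without ABA did not overlap in either sample type in Col-0 or in the mutants. The low values of CIL lie at about the level of MUTE and below the array medians of 5.05 to 5.38, and whether the probe set is above background there was not tested. In the mutant mean CIL rose by 2.70 ± 0.29 (SE) in guard cells (limma adjusted p = 2.55e-07) and fell by 1.42 ± 0.12 (SE) in leaves (limma adjusted p = 3.37e-08), against a Col-0 leaf response of -1.48. In the first group 2 of 53 genes kept 80% or more of their Col-0 leaf response, and 46 of 53 kept as much of their guard cell response. For the second group these counts were 12 and 51 of 65.

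AT1G67310, ZAP1 and AT5G47610 passed the test in mutant guard cells and not in mutant leaves. AT1G67310 belongs to the calmodulin-binding transcription activators, which link calcium signals to transcription. In Col-0 leaves it stood at 7.24, 7.73 and 8.11 without ABA and at 6.14, 5.82 and 5.34 with it, without overlap. The mutant leaves ranged from 5.61 over a median of 6.78 to 7.91 without ABA and from 5.69 over 6.22 to 6.86 with it, which overlap. In the mutant mean its leaf value was -0.48 ± 0.22 (SE; limma adjusted p = 0.122), and in guard cells it rose by 1.70 ± 0.12 (SE; limma adjusted p = 3.6e-10). ZAP1, a transcription factor of the WRKY family, rose by 0.81 ± 0.16 (SE) in mutant guard cells (limma adjusted p = 0.000292), and its leaf value was -0.60 ± 0.25 (SE; limma adjusted p = 0.085) against -1.72 in Col-0. AT5G47610, a RING-finger protein of the kind that attaches ubiquitin, rose by 2.14 ± 0.24 (SE) in mutant guard cells (limma adjusted p = 6.25e-07), while its mutant leaf values were -0.50, 0.62 and 0.02 in agb1, gpa1 and agb1 gpa1.

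CRT1b encodes a calreticulin, a chaperone of the endoplasmic reticulum that binds calcium and holds unfolded glycoproteins. In Col-0 guard cells it was at 8.32, 7.91 and 7.22 without ABA and at 10.81, 10.55 and 9.88 with it, and in Col-0 leaves at 11.16, 9.64 and 9.10 without and 8.11, 9.03 and 8.85 with it. The Col-0 groups did not overlap in either sample type, but in leaves the nearest arrays lay 9.10 against 9.03 apart. In mutant guard cells the lowest, median and highest values were 7.95, 8.31 and 8.85 without ABA and 10.47, 10.72 and 11.53 with it. In mutant leaves they were 7.85, 8.92 and 10.44 without and 7.10, 8.48 and 9.46 with it, which overlap broadly. CRT1b rose by 2.53 ± 0.17 (SE) in mutant guard cells (limma adjusted p = 2.25e-10) and had a leaf value of -0.66 ± 0.35 (SE; limma adjusted p = 0.166).

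AT4G16660, of the HSP70 chaperone family, and ATERDJ3B, a DnaJ partner of such chaperones, had like values. AT4G16660 rose by 1.75 ± 0.20 (SE) in mutant guard cells (limma adjusted p = 8.17e-07), with a leaf value of -0.61 ± 0.41 (SE; limma adjusted p = 0.297). ATERDJ3B, named after its values were seen, rose by 1.20 ± 0.10 (SE) in mutant guard cells (limma adjusted p = 4.14e-09), with a leaf value of -0.46 ± 0.28 (SE; limma adjusted p = 0.243). CRT1b, AT4G16660 and ATERDJ3B all had their highest Col-0 leaf value on the first EtOH array, at 11.16 for CRT1b, 8.84 for AT4G16660 and 11.33 for ATERDJ3B. On the third EtOH array ATERDJ3B was at 9.41, below its values of 9.97 and 9.6 on the second and the third ABA array, so its Col-0 leaf groups overlap.

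AT1G16350, of the inosine monophosphate dehydrogenase family of guanine nucleotide synthesis, repeated both sides. It was at 6.27, 5.72 and 5.81 without ABA and 6.89, 6.99 and 7.19 with it in Col-0 guard cells, and at 8.09, 7.14 and 7.32 without and 5.44, 5.80 and 4.43 with it in Col-0 leaves. Neither pair of Col-0 groups overlapped. Mutant leaves ranged from 5.98 over 6.36 to 7.33 without ABA and from 4.43 over 5.16 to 5.78 with it, which do not overlap. It rose by 1.06 ± 0.12 (SE) in mutant guard cells (limma adjusted p = 4.13e-07) and fell by 1.48 ± 0.22 (SE) in mutant leaves (limma adjusted p = 3.05e-05).

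MCCA, a subunit of methylcrotonyl-CoA carboxylase in leucine breakdown, showed the opposite extreme. Its Col-0 leaf values were 8.86, 10.82 and 11.68 without ABA and 9.42, 6.17 and 8.71 with it, so the groups overlap and the mean difference of -2.35 leans on the second ABA array. Its Col-0 guard cell values were 7.0, 8.7 and 8.1 without and 8.7, 9.0 and 8.9 with it, where the second EtOH array reaches into the ABA range. In the mutant mean MCCA passed the test in neither guard cells nor leaves, with a leaf value of -0.68 ± 0.50 (SE; limma adjusted p = 0.338). ALDH6B2, an aldehyde dehydrogenase of valine breakdown named after its values were seen, rose by 0.86 ± 0.19 (SE) in mutant guard cells (limma adjusted p = 0.00132) and had a leaf value of -0.31 ± 0.33 (SE; limma adjusted p = 0.537). THIC, an enzyme of thiamine synthesis that was likewise picked out afterwards, had a Col-0 leaf response of -1.83 and a mutant leaf value of -0.10 ± 0.25 (SE; limma adjusted p = 0.804).

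AT5G61520, of the sugar transporter family, and AT1G13640, of the phosphatidylinositol kinase family, kept both sides. AT5G61520 had Col-0 leaf values of 9.42, 8.28 and 8.06 without ABA and 6.85, 8.28 and 7.37 with it, which overlap at 8.28. Mutant leaves ran from 7.99 over 8.70 to 8.96 without ABA and from 6.99 over 7.35 to 7.81 with it, with no overlap, and the gene fell by 1.18 ± 0.21 (SE; limma adjusted p = 0.000201). In mutant guard cells it rose by 1.12 ± 0.10 (SE; limma adjusted p = 2.16e-08). Its leaf response in the mutants was thus no smaller than the Col-0 value of -1.09. AT1G13640 had Col-0 leaf values of 5.70, 6.60 and 7.19 without ABA and 4.53, 3.86 and 4.39 with it. In mutant leaves it fell by 1.13 ± 0.22 (SE; limma adjusted p = 0.000645), about midway between 0 and the -2.24 of Col-0, and in mutant guard cells it rose by 1.54 ± 0.12 (SE; limma adjusted p = 1.41e-09).

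The other 4 genes of the first group called on both sides were AT1G18460, AT4G36390, AT5G66420 and AT1G69950, which the annotation lists as a pseudogene. AT1G18460, of the family of alpha/beta hydrolases, rose by 2.62 ± 0.11 (SE) in mutant guard cells (limma adjusted p = 2.33e-13) and fell by 0.62 ± 0.16 (SE) in mutant leaves (limma adjusted p = 0.00691), against -1.94 in Col-0 leaves. AT4G36390 fell by 0.67 ± 0.10 (SE) in mutant leaves (limma adjusted p = 4.75e-05) and rose by 0.59 ± 0.10 (SE) in mutant guard cells (limma adjusted p = 6.19e-05). AT5G66420 passed only just in mutant leaves, at -0.49 ± 0.18 (SE; limma adjusted p = 0.0499). That call was lost when any of 17 leaf arrays was left out, for example at an adjusted p of 0.115 in limma without the third EtOH array of gpa1. Centring each array on its median or by gene length also lost it, at limma adjusted p-values of 0.0781 and 0.0845. In mutant leaves AT1G69950 lay between 3.96 and 5.11 without ABA and between 3.72 and 4.29 with it. The values with ABA lie below the array medians of 5.05 to 5.38, and whether they are above background was not tested. The guard cell call of AT1G69950, at 0.46 ± 0.15 (SE; limma adjusted p = 0.0244), was lost at 0.0517, 0.0596, 0.051 and 0.0592 without the third EtOH array of gpa1, the first EtOH array of agb1 gpa1, the third ABA array of gpa1 and the third ABA array of agb1 gpa1.

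RAD4, which encodes a protein related to a yeast DNA repair factor, was the only gene of the first group called against its Col-0 leaf direction. In Col-0 leaves it was at 6.61, 6.47 and 6.75 without ABA and at 5.73, 5.55 and 5.66 with it, without overlap. In mutant leaves it ran from 5.30 over 5.66 to 6.33 without ABA and from 5.51 over 6.53 to 7.12 with it. It rose by 0.62 ± 0.18 (SE) in mutant leaves (limma adjusted p = 0.0125) and by 0.98 ± 0.12 (SE) in mutant guard cells (limma adjusted p = 1.01e-06), so that in the mutants it moved the same way in both. AT1G48840, among the widest differences in Col-0, rose by 2.16 ± 0.12 (SE) in mutant guard cells (limma adjusted p = 1.95e-11) and had a mutant leaf value of 0.26 ± 0.24 (SE; limma adjusted p = 0.481) against -0.93 in Col-0 leaves.

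**Figure D4:**
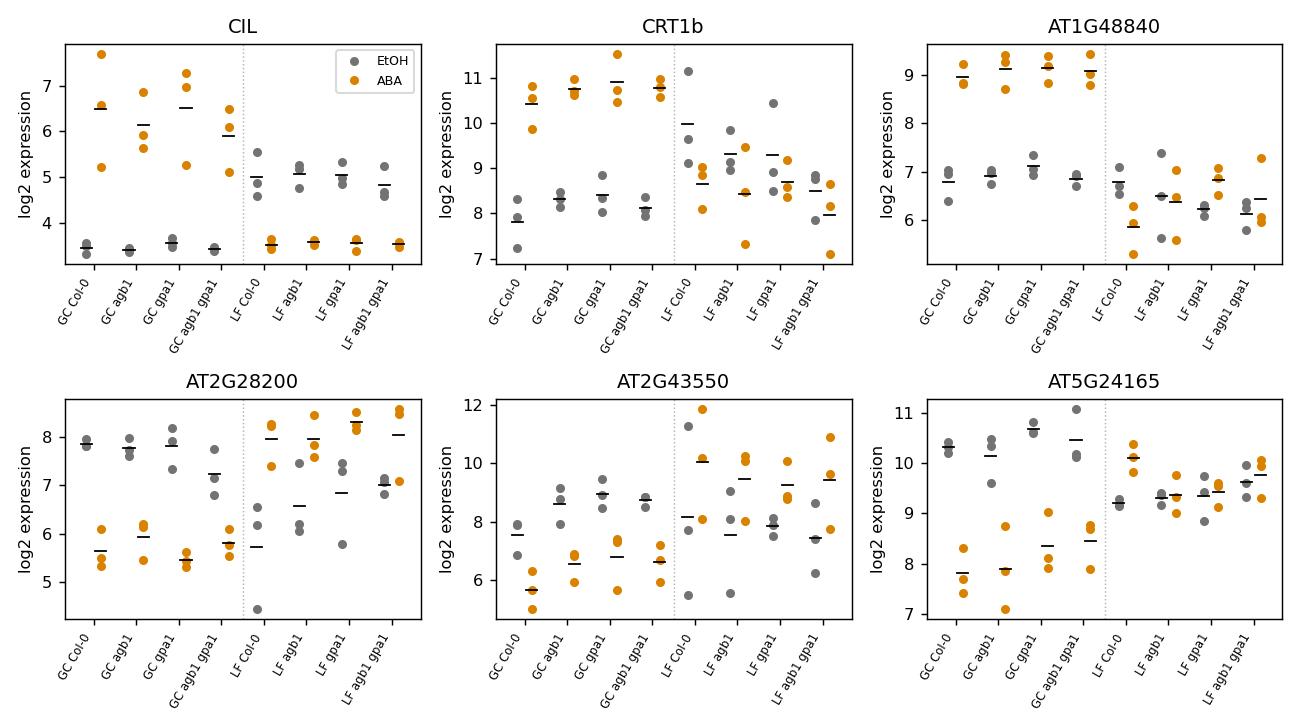
Deposited log2 expression of 6 members on each of the 48 arrays, by sample type (GC guard cells, LF leaves) and genotype, with EtOH in grey, ABA in orange and a bar at the mean of the 3 arrays. Guard cell points with and without ABA lie apart within Col-0 and within the mutants in all 6 genes, while the mutant leaf points lie apart in CIL and overlap in the other 5.

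Among the genes that were lower with ABA in guard cells, AT2G28200 encodes a zinc finger protein of the C2H2 type. In Col-0 guard cells it was at 7.81, 7.95 and 7.80 without ABA and at 5.50, 5.34 and 6.10 with it, and in Col-0 leaves at 4.45, 6.19 and 6.56 without and 8.22, 7.40 and 8.25 with it. Mutant guard cells ran from 6.81 over 7.73 to 8.18 without ABA and from 5.31 over 5.63 to 6.20 with it, and mutant leaves from 5.78 over 7.07 to 7.46 without and 7.08 over 8.23 to 8.56 with it. Only the mutant leaf groups overlap. In the mutant mean AT2G28200 fell by 1.87 ± 0.15 (SE) in guard cells (limma adjusted p = 2.97e-09) and rose by 1.28 ± 0.31 (SE) in leaves (limma adjusted p = 0.00326), against 2.23 in Col-0 leaves.

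AT1G10585, of the basic helix-loop-helix transcription factors, kept more of its leaf response. Its Col-0 leaf values were 8.60, 9.18 and 8.96 without ABA and 10.88, 11.06 and 11.04 with it, and its Col-0 guard cell values 10.95, 11.07 and 10.43 without and 9.80, 9.07 and 8.59 with it. Mutant leaves ran from 8.64 over 9.28 to 9.58 without ABA and from 10.41 over 10.88 to 11.18 with it. The groups did not overlap in Col-0 or in the mutants. It rose by 1.67 ± 0.13 (SE) in mutant leaves (limma adjusted p = 1.91e-08) and fell by 1.85 ± 0.21 (SE) in mutant guard cells (limma adjusted p = 4.37e-07). AT2G28710, another C2H2 zinc finger gene named after its values were seen, fell by 1.52 ± 0.23 (SE) in mutant guard cells (limma adjusted p = 1.8e-05) but had a mutant leaf value of 0.25 ± 0.18 (SE; limma adjusted p = 0.346).

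AT2G43530 and AT2G43550 encode small cysteine-rich proteins of the knottin type, many of which act in defence, and lie near each other with 2 protein-coding genes between them. AT2G43530 was at 10.75, 8.57 and 7.38 without ABA and 11.64, 12.13 and 11.26 with it in Col-0 leaves, and at 7.60, 8.49 and 6.83 without and 7.56, 5.58 and 5.24 with it in Col-0 guard cells, where the groups overlap. It rose by 2.25 ± 0.40 (SE) in mutant leaves (limma adjusted p = 0.000207) and fell by 1.38 ± 0.35 (SE) in mutant guard cells (limma adjusted p = 0.00344). AT2G43550 was at 11.26, 7.72 and 5.47 without ABA and at 10.16, 11.85 and 8.09 with it in Col-0 leaves, a wide spread with overlap. Its mutant leaf value of 1.77 ± 0.72 (SE) was as large as many called ones but did not pass the test (limma adjusted p = 0.0714), and in mutant guard cells it fell by 2.12 ± 0.27 (SE; limma adjusted p = 2.71e-06). As nearby genes of the same family, they are not independent examples.

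AT4G28085 and AT2G37540 met the rule in every genotype. AT4G28085, whose product has no role given here, was at 7.08, 8.96 and 8.49 without ABA and 10.62, 10.18 and 10.72 with it in Col-0 leaves. It rose by 1.17 ± 0.21 (SE) in mutant leaves (limma adjusted p = 0.000283) and fell by 1.62 ± 0.13 (SE) in mutant guard cells (limma adjusted p = 4.28e-09). AT2G37540, of the short-chain dehydrogenase family, was at 7.54, 8.52 and 8.66 without ABA and 10.13, 9.73 and 10.69 with it in Col-0 leaves, and at 11.30, 11.24 and 10.98 without and 10.32, 10.02 and 10.08 with it in Col-0 guard cells. It rose by 1.74 ± 0.23 (SE) in mutant leaves (limma adjusted p = 1.09e-05), close to its Col-0 value of 1.94, and fell by 1.11 ± 0.10 (SE) in mutant guard cells (limma adjusted p = 1.71e-08).

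AT5G37670, a small heat shock protein that keeps damaged proteins soluble, was high in guard cells and low in leaves. It was at 9.36, 10.18 and 9.45 without ABA and 9.16, 8.39 and 7.33 with it in Col-0 guard cells, and at 4.72, 5.22 and 4.88 without and 6.85, 6.21 and 7.16 with it in Col-0 leaves. It fell by 1.37 ± 0.22 (SE) in mutant guard cells (limma adjusted p = 4.13e-05) and rose by 1.13 ± 0.24 (SE) in mutant leaves (limma adjusted p = 0.00101). AT2G05540, a glycine-rich protein, was at 13.08, 14.01 and 13.20 without ABA in Col-0 guard cells. It fell by 0.83 ± 0.14 (SE) in mutant guard cells (limma adjusted p = 6.54e-05) and rose by 1.48 ± 0.21 (SE) in mutant leaves (limma adjusted p = 1.92e-05).

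AT1G06620, of the oxygenases that use 2-oxoglutarate, AT4G26130, with no role given here, and AT2G34160, of the nucleic acid-binding Alba family, were also called on both sides. AT1G06620 fell by 2.19 ± 0.17 (SE) in mutant guard cells (limma adjusted p = 1.83e-09) and rose by 0.94 ± 0.26 (SE) in mutant leaves (limma adjusted p = 0.00982), beside 1.12 in Col-0 leaves. AT4G26130 rose by 1.01 ± 0.15 (SE) in mutant leaves (limma adjusted p = 2.76e-05) and fell by 1.33 ± 0.18 (SE) in mutant guard cells (limma adjusted p = 5.91e-06). AT2G34160 fell by 2.56 ± 0.14 (SE) in mutant guard cells (limma adjusted p = 7.91e-12), the lowest mutant guard cell value among the members. Its mutant leaf rise of 0.50 ± 0.14 (SE; limma adjusted p = 0.00982) compares with 1.47 in Col-0.

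The next genes were, apart from AT1G60160, picked out after their values were seen. AT3G56200, of the amino acid transporter family, rose by 1.57 ± 0.13 (SE) in mutant leaves (limma adjusted p = 2.41e-08) and fell by 0.85 ± 0.11 (SE) in mutant guard cells (limma adjusted p = 4.58e-06). AT1G60160, of the potassium transporter family, rose by 1.23 ± 0.22 (SE) in mutant leaves (limma adjusted p = 0.000278), above its Col-0 value of 0.80, which lies at the threshold. ASPGB1, an asparaginase that frees ammonium from asparagine, fell by 1.58 ± 0.13 (SE) in mutant guard cells (limma adjusted p = 5.47e-09) and rose by 0.53 ± 0.17 (SE) in mutant leaves (limma adjusted p = 0.0246). SWEET1, a sugar carrier, was the member with the weakest guard cell response in the mutants, and it rose by 0.96 ± 0.31 (SE) in mutant leaves (limma adjusted p = 0.0246). The leaf call of ASPGB1 was lost, at adjusted p-values in limma of 0.0562, 0.0509, 0.059 and 0.0566, without the second EtOH array of agb1, the third EtOH array of gpa1, the third ABA array of agb1 or the third ABA array of agb1 gpa1. That of SWEET1 was lost, at 0.0507, 0.0587 and 0.0545 in limma, without the first EtOH array of agb1, the third EtOH array of gpa1 or the second ABA array of agb1 gpa1.

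AT5G24165, with no role given here, responded in mutant guard cells but had a leaf value near 0. In Col-0 guard cells it was at 10.19, 10.31 and 10.42 without ABA and at 8.32, 7.71 and 7.41 with it, and in Col-0 leaves at 9.17, 9.14 and 9.28 without and 10.12, 9.81 and 10.38 with it. Mutant guard cells ran from 9.60 over 10.48 to 11.07 without ABA and from 7.09 over 8.11 to 9.02 with it, and mutant leaves from 8.85 over 9.40 to 9.97 without and 9.01 over 9.55 to 10.05 with it. Guard cell groups are apart and mutant leaf groups nearly coincide. It fell by 2.19 ± 0.22 (SE) in mutant guard cells (limma adjusted p = 9.11e-08), and its leaf value was 0.09 ± 0.14 (SE; limma adjusted p = 0.693) against 0.91 in Col-0. Its direct neighbour AT5G24170, also a member and named for its position, had a mutant leaf value of 0.06 ± 0.18 (SE; limma adjusted p = 0.847) against 1.34 in Col-0.

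RTE1, a membrane protein that acts on an ethylene receptor, fell by 1.0 ± 0.14 (SE) in mutant guard cells (limma adjusted p = 8.77e-06) and had a mutant leaf value of 0.07 ± 0.15 (SE; limma adjusted p = 0.783). PUB25, a U-box ubiquitin ligase, fell by 1.20 ± 0.21 (SE) in mutant guard cells (limma adjusted p = 0.000132), with a leaf value of 0.50 ± 0.30 (SE; limma adjusted p = 0.244). AT2G25735 was the gene of this group called against its Col-0 leaf direction. It was at 9.78, 10.54 and 9.83 without ABA and 10.79, 11.17 and 10.71 with it in Col-0 leaves, and ran from 9.75 over 10.51 to 10.67 without and 9.27 over 9.94 to 10.59 with it in mutant leaves. It fell by 0.55 ± 0.18 (SE) in mutant leaves (limma adjusted p = 0.0261). That call was lost, at adjusted p-values in limma of 0.0519, 0.0562, 0.0595, 0.0615 and 0.0536, without the third EtOH, first ABA or second ABA array of agb1, the second ABA array of gpa1 or the second ABA array of agb1 gpa1. With every array centred on its median it was lost too, at a limma adjusted p of 0.0809.

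The leaf levels of Col-0 departed from those of the mutants with and without ABA. In the first group, Col-0 leaves without ABA lay above the mean of the mutants in 49 of 53 genes, with a median difference of 0.61, and with ABA above it in 5 of 53, with a median of -0.46. In the second group, Col-0 leaves without ABA lay above the mutant mean in 7 of 65 genes, with a median of -0.38, and with ABA in 56 of 65, with a median of 0.45. Over all probe sets these medians were -0.03 without ABA and 0.01 with it. THIC shows this, at 9.68, 9.86 and 9.10 in Col-0 leaves without ABA and between 7.31 and 8.83 in mutant leaves without ABA. In guard cells the medians lay between -0.12 and -0.03. The Col-0 arrays chose the genes, so these values are given without a test.

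ABA also turned the order of the sample types in some members. In the mutants, guard cells without ABA were called lower than leaves in 22 of the 53 genes of the first group and higher in 21. With ABA they were lower in 4 and higher in 38. Of all probe sets, 27.6% were called lower and 30% higher without ABA, and 27.9% and 32.3% with it. In the second group guard cells were higher in 35 and lower in 19 of 65 genes without ABA, and higher in 12 and lower in 43 with it. The order turned, with both calls made, in 7 genes of the first group and 13 of the second, beside 0.668% and 0.752% of all probe sets. In the Col-0 means it turned in 31 of 53 and 35 of 65 genes.

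No difference between the mutants was called in any member. The response of agb1 minus that of gpa1, and that of agb1 gpa1 minus the mean of agb1 and gpa1, were called in 0 of 118 genes in guard cells and in leaves with limma, and in 0% of all probe sets. At an unadjusted p under 0.05, 2 and 0 members passed for agb1 minus gpa1 in guard cells and leaves and 1 and 0 for the double mutant, beside 277, 204, 444 and 173 of 22746 probe sets. No other tool was run on these contrasts. In leaves the response of agb1 minus gpa1 had a median of -0.20 in the first group and 0.15 in the second, with a median standard error over members of 0.46, so differences of that size were not detectable at 3 arrays a group.

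Gene length separated the groups, although the rule did not use it. The length is the span of the gene on the TAIR10.1 assembly, introns included, and all 118 members have one. The first group had a median length of 3.62 kb and the second of 1.63 kb, while 13436 probe sets of 1 gene had a median of 2.12 kb. In the first group 51 of 53 genes were longer than that median, and in the second 14 of 65. Of the 5 equal bins of length, from shortest to longest, the first group had 1, 0, 5, 17 and 30 genes and the second 14, 28, 14, 6 and 3. Thus the genes that were lower with ABA in Col-0 leaves were long and those that were higher there were short.

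In the other genes length went with the response in leaves more than with that in guard cells. Non-members at or below -0.8 in Col-0 leaves had a median length of 3.30 kb and those at or above 0.8 there 1.66 kb. Non-members at or above 0.8 in Col-0 guard cells had a median of 2.03 kb and those at or below -0.8 there 2.49 kb. Across all genes the median Col-0 leaf response was 0.18 in the shortest bin and -0.39 in the longest, whereas in mutant leaves the longest bin had medians of -0.13, -0.07 and -0.07 in agb1, gpa1 and agb1 gpa1. In guard cells the shortest bin lay between 0.03 and 0.09 and the longest between -0.04 and -0.02 in the 4 genotypes.

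The median log2 value of the longest bin minus that of the shortest, computed on each array, differed between Col-0 and mutant leaves without ABA. It was 1.90 ± 0.02 (SD, n = 3) in Col-0 leaves without ABA and 0.84 ± 0.04 (SD, n = 3) with it. In leaves of agb1, gpa1 and agb1 gpa1 it was 1.51 ± 0.36, 1.46 ± 0.26 and 1.24 ± 0.25 (SD, n = 3 each) without ABA and 1.03 ± 0.29, 1.16 ± 0.16 and 0.91 ± 0.13 (SD, n = 3 each) with it. Without ABA the lowest Col-0 leaf array, at 1.88, lay above the highest mutant one, at 1.76, whereas with ABA the Col-0 arrays, from 0.81 to 0.88, lay within the mutants' range of 0.70 to 1.25. In guard cells they were between 1.69 and 1.75 without ABA and between 1.37 and 1.48 with it, in the 4 genotypes. The part of this difference between arrays in the members' leaf responses was not tested directly. With the values of each array centred within 20 bins of gene length, an alternative chosen after seeing the data, 101 genes met the rule, of which 37 and 53 were members of the 2 groups here. Of those 101 genes, 98% were called in the Col-0 direction in guard cells and 35.6% in leaves of the mutant mean. The shares of all probe sets called with this centring are not given here, so the 98% and 35.6% have no background of their own fit. Without this centring, 14.6% of all probe sets rose and 21% fell in mutant guard cells, and 13% rose and 18% fell in mutant leaves.

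**Figure D5:**
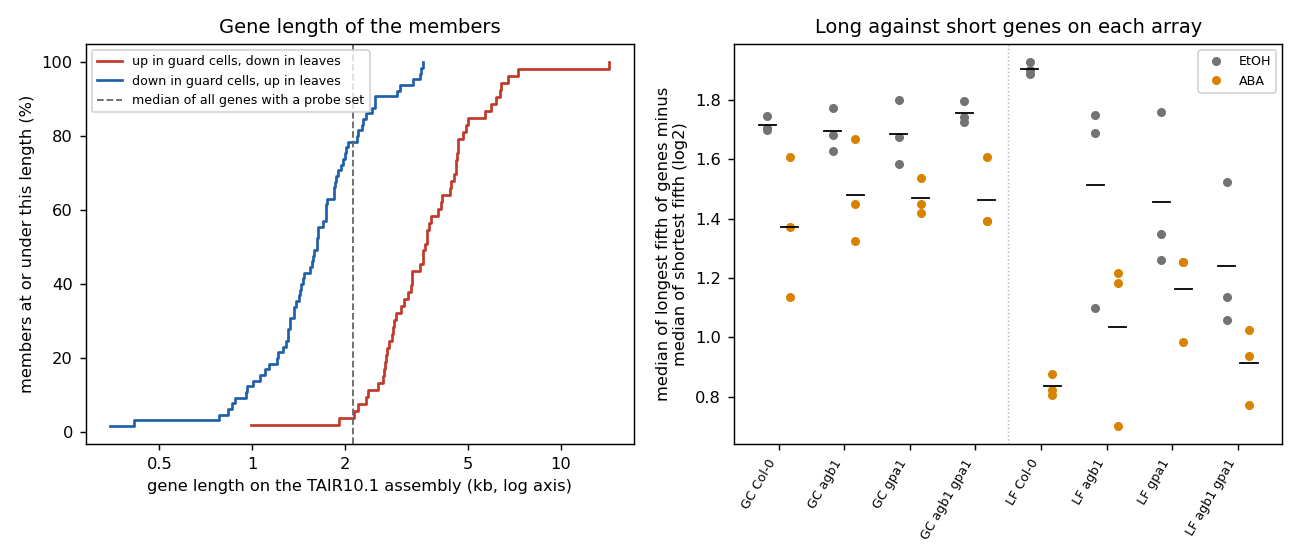
Left, share of the members of each group (vertical axis, %) at or under a given gene length (horizontal axis, kb, log axis), with the median of all genes, 2.12 kb, dashed. Right, median of the longest minus median of the shortest bin of genes (log2) on each of the 48 arrays, with EtOH in grey, ABA in orange and a bar at the mean of 3 arrays; Col-0 leaves go from 1.90 to 0.84, the widest step among the 8 pairs of groups.

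The leaf levels of some cell type markers also changed with ABA by different amounts in Col-0 and the mutants. The summed level of the 4 measured ones, RCA, SBPASE, LHCB4.2 and PRK, all proteins of photosynthesis, ran from 14.34 to 14.69 in Col-0 leaves without ABA and from 12.39 to 13.29 with it (log2 of the sum). In mutant leaves it ran from 13.64 to 14.40 without ABA and from 12.78 to 13.78 with it. The mean change was -1.51 in Col-0 leaves and -0.70 in mutant leaves, and in guard cells it was -0.87 and -0.62. Taken singly, RCA, SBPASE and PRK changed by -1.92, -2.07 and -2.19 in Col-0 leaves and by -0.52, -0.71 and -1.03 in mutant leaves, but LHCB4.2 changed by -1.01 and -0.81. The vascular marker SWEET11 changed by -1.24 and -1.26. The summed level of the 3 guard cell markers, ruled by the abundant AT1G22690, changed by -0.41 in Col-0 leaves and -0.83 in mutant leaves, whereas FMA changed by -1.12 and -0.41. In the guard cell samples themselves FMA also changed with ABA, by -2.44 in Col-0 and -2.47 in the mutants. The summed level changed there by -0.58 and -0.42. The part of any of these in the members' leaf values was not tested.

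Few of the members belonged to the gene lists tried. Of 39 lists searched by words in symbols and synonyms, 10 held no gene and 26 held genes but no member, since most loci carry no descriptive name. ZAP1 was 1 of 7 WRKY genes, of which 1 rose and 4 fell in mutant guard cells, and 1 rose and 4 fell in mutant leaves. RTE1 was 1 of 2 ethylene genes, of which both fell in mutant guard cells and neither passed in leaves. PUB25 was 1 of 41 genes matched by the words ubiquitin, F-box, RING or U-box, not all of which need be ligases. Of these, 9 rose and 6 fell in mutant guard cells and the same numbers in leaves. Only 3 members had a further probe set, and they are named for that reason. For AT5G24690 it gave 0.72 and -0.75 in Col-0 guard cells and leaves against the member's 0.86 and -1.30, for AT5G47400 it gave 1.24 and -0.10 against 1.21 and -0.87, and for AT1G16040 it gave -0.21 and 0.06 against -1.20 and 0.82. In none of the 3 did the other probe set meet the rule. NET1D and MCCA, which are direct neighbours, were both in the first group.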

How the data were processed

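Expression was measured on 48 arrays, 24 of guard cells and 24 of leaves, grouped by the labels. What the authors deposited is 1 log2 value per probe set and array, made with RMA in affy, per the submitters' processing notes. Versions and whether all arrays were normalized together are not given in the sources used here. Values ran from 2.42 to 14.5 and array medians from 5.05 to 5.38. The number of arrays limits the precision.

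After 64 control probe sets were left out, 22746 were tested. The platform annotation tied 13513 to 1 gene, 503 to several and 8730 to none. Symbols and gene lengths came from RefSeq on TAIR10.1. Promoter and protein sequences were not analysed here, so the planned count of promoter motifs was not made.

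Responses were tested on the deposited log2 values with limma 3.58.1 in R 4.3.3, in a cell-means model with no covariate, two-sided, with Benjamini-Hochberg adjustment over 22746 probe sets. Responses within a tissue used its 24 arrays and comparisons between tissues all 48, so Col-0 arrays entered the estimate of spread but not the mutant contrasts. The fits were tested on simulated data.

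The members and lists were chosen with earlier results of these data known. Genes named with values were, for each direction, the 10 with the widest Col-0 difference, the 8 with the widest called mutant difference, up to 5 called in the opposite direction, up to 8 called in both tissues, list members and those at the threshold. The others are marked as chosen after their values were seen. Alternatives were median centring, other member thresholds, a filter on dim probe sets, other fits, a replicate block, each array left out and, added after seeing the data, centring by gene length.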

Additional observations from a re-analysis of the deposited data

Results flagged for a closer look

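The difference in ABA response between guard cells and leaves was tested with limma in the mean of the 3 mutants. It was called in 47 of the 53 genes higher with ABA in guard cells, where 11.8% of all probe sets were called higher. In the group lower there it was called in 63 of 65 genes, where 11.7% of all probe sets were called lower. Such a call does not need a response in leaves, where 8 of the 53 and 31 of the 65 genes were called in the Col-0 direction. RAD4 rose by 0.624 in mutant leaves, while its Col-0 leaf response was -0.96. AT2G25735 had a mutant leaf response of -0.5481, while its Col-0 leaf response was 0.84. The call of AT2G25735 was lost without any of 5 arrays and with every array centred on its median. In both genes all 3 mutants moved against Col-0, and the difference from Col-0 was not tested, because the Col-0 arrays chose the members.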

How the results depend on the processing

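The shares of members called in the mutant mean, 98.3% in guard cells, 33.1% in leaves and 93.2% for the difference between tissues, stayed within 1.5 times under every alternative run except that, with a member threshold of 1.0, 52.5% of the 40 members left were called in leaves. With each array left out in turn they ranged from 90.2% to 98.5%, from 27.1% to 37.9% and from 86.2% to 96.6%. The tissue difference was called in 82.2% of members with and without ABA. With arrays left out it ranged from 76.1% to 83.1% without ABA and from 79.7% to 84.7% with it. Over all probe sets the corresponding shares ranged from 56.1% to 58% and from 58.7% to 60.5%. The contrasts between mutants stayed at 0. The members themselves depend more on the choice. Leaving out a Col-0 array gave 47 to 65 and 56 to 84 genes in the 2 groups, a threshold of 0.6 gave 113 and 164, a threshold of 1.0 gave 17 and 23, and centring each array on its median gave 31, of which 30 were shared, and 78, of which 54 were shared.

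Same-numbered guard cell replicates of different groups had median correlations of their deviations of 0.0221, 0.0932 and 0.2 for the 3 numbers, with 11, 13 and 17 of 28 pairs over 0.1, against -0.0472 and 38 of 168 for different numbers, so they tended to deviate together. In leaves the medians were -0.0409, -0.0145 and 0.0143, against 0.00381 for different numbers. As not every pair was over 0.1, the numbers were not taken as pairing the samples. With the replicate number as a block, 99.2%, 31.4% and 93.2% of members were called. The tissue difference was called in 75.4% in that fit. There the blocks were set within each tissue, so this difference refers to the level of the first replicate. It is thus not the same quantity as the 82.2% above. No other tool than limma was used.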
